A study of Mus musculus with 24 samples.

Results

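The mitotic cell cycle genes described here are 44 genes, taken by name from a list of mouse gene symbols, out of 23234 genes in each table. All 44 names were found in both tables. The libraries came from freshly isolated spleen B cells of C57BL/6 mice. They fall into 4 groups of 3 libraries: CD93- B cells labelled Tet2/Tet3-deficient (DKO), CD93- B cells labelled control (CTL), CD93+ B cells labelled Tet2/Tet3-deficient (DKO) and CD93+ B cells labelled control (CTL). Tet2 and Tet3 encode enzymes that oxidise 5-methylcytosine in DNA, and CD93 is a surface protein found on immature B cells and on some other blood and vessel cells. Alleles, any Cre driver, the age of the mice and whether replicates came from separate animals are not given in the labels. P-values therefore measure the spread among these libraries alone, which may be technical.

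Mitosis is run by cyclin-dependent kinase 1 bound to cyclins A and B, which drives chromosome condensation, spindle assembly and the attachment of chromosomes to microtubules at the kinetochore. The spindle checkpoint holds cells until every chromosome is attached, and the anaphase-promoting complex (APC/C), a ubiquitin ligase, then destroys cyclin B and other substrates so that chromosomes separate and the cell divides. Most of these genes are transcribed in late S, G2 and M phase and are low in resting cells, so the resting B cells that make up most of the mature splenic pool contain little of their RNA. In RNA from bulk cells, fewer cells of a type and less RNA per cell cannot be told apart, so a level here is that of the whole sort.

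Levels are in FPKM, the number of sequenced fragments of a gene set against its length and the size of the library, and the depth of the libraries is unknown. Changes are DKO minus CTL of log2(FPKM + 1), so that changes of low genes are understated, and a gene passed at an adjusted p under 0.05 in limma. The sums of FPKM over all genes differed between libraries. They were 424032 to 463987 in the DKO and 342368 to 394709 in the CTL libraries of CD93- cells. Among CD93+ libraries DKO replicate 3 stood apart, since its values summed to 309359 while those of the remaining 5 summed to 523898 or more. Each comparison was therefore also made after bringing the upper quartile of every library to a common value (upper quartile rescaling), which moved the median change of all tested genes to -0.08, against 0.11 before, in CD93- cells and to -0.01, against -0.22 before, in CD93+ cells. Tet2 was at 9.94, 8.15 and 9.40 FPKM in DKO and at 6.36, 8.11 and 8.79 FPKM in CTL libraries of CD93- cells, and Tet3 was at 15.7, 15.6 and 14.9 FPKM in DKO and 14.8, 20.1 and 19.0 FPKM in CTL libraries. In CD93+ cells Tet2 was at 3.55, 2.29 and 1.80 FPKM in DKO and 3.18, 3.47 and 3.10 FPKM in CTL libraries. Tet3 was at 9.92, 7.67 and 3.84 FPKM in DKO and 12.1, 13.0 and 14.1 FPKM in CTL libraries there, without overlap. Over 24 alternative fits Tet3 passed as lower in 7. Deleted exons and kept exons are not separated in a gene's FPKM, so these values check neither label.

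In CD93- cells the mitotic genes were higher throughout in DKO libraries. Of the 43 members tested, 43 rose and 0 fell, where 18.7% of all 10960 tested genes rose and 2.79% fell. The median log2 change of the tested members was 1.45, against 0.11 for all tested genes, and it ran from 0.60 (Ndc80) to 2.42 (Cdca3). As a ratio of mean FPKM the members were 1.54 to 7.31 times as high in DKO as in CTL libraries. In all 43, every DKO library lay above every CTL library, which held for 31.5% of all tested genes. For Kif4 this was fixed by the filter of 1 FPKM in 3 libraries. Its CTL libraries were at 0.571, 0.659 and 0.689 FPKM, so it entered only through its DKO libraries. After upper quartile rescaling the median change was 1.28, 42 members passed, 0 fell, and the libraries of the 43 members still did not overlap (background 17.1% higher, 23.8% lower and 21.4% with every DKO above every CTL library). Ndc80 was the member that no longer passed (log2 change 0.40, adjusted p = 0.0519), and its adjusted p ranged between 0.00217 and 0.0757 over 16 alternatives, of which it passed in 13.

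Cdc25c, a phosphatase that activates Cdk1, was the member that was too low to be tested, with fewer than 3 libraries at 1 FPKM or more. Its values were 0.945, 1.77 and 1.79 FPKM in DKO and 0.342, 0.171 and 0.497 FPKM in CTL libraries. The lowest DKO library was above the highest CTL library here too. The filter can pass a gene through the group where it is high, as it did for Kif4, and 14 tested members had a mean below 2 FPKM in CTL libraries. Bub1, Ttk, Kif2c and Cenpf reached 1 FPKM in only 1 CTL library each (1.04, 1.10, 1.05 and 1.11 FPKM), and Cdk1, Cdca5 and Ect2 in 2. These members also needed their DKO libraries to enter, and the counts over the tested members include them.

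**Figure D1:**
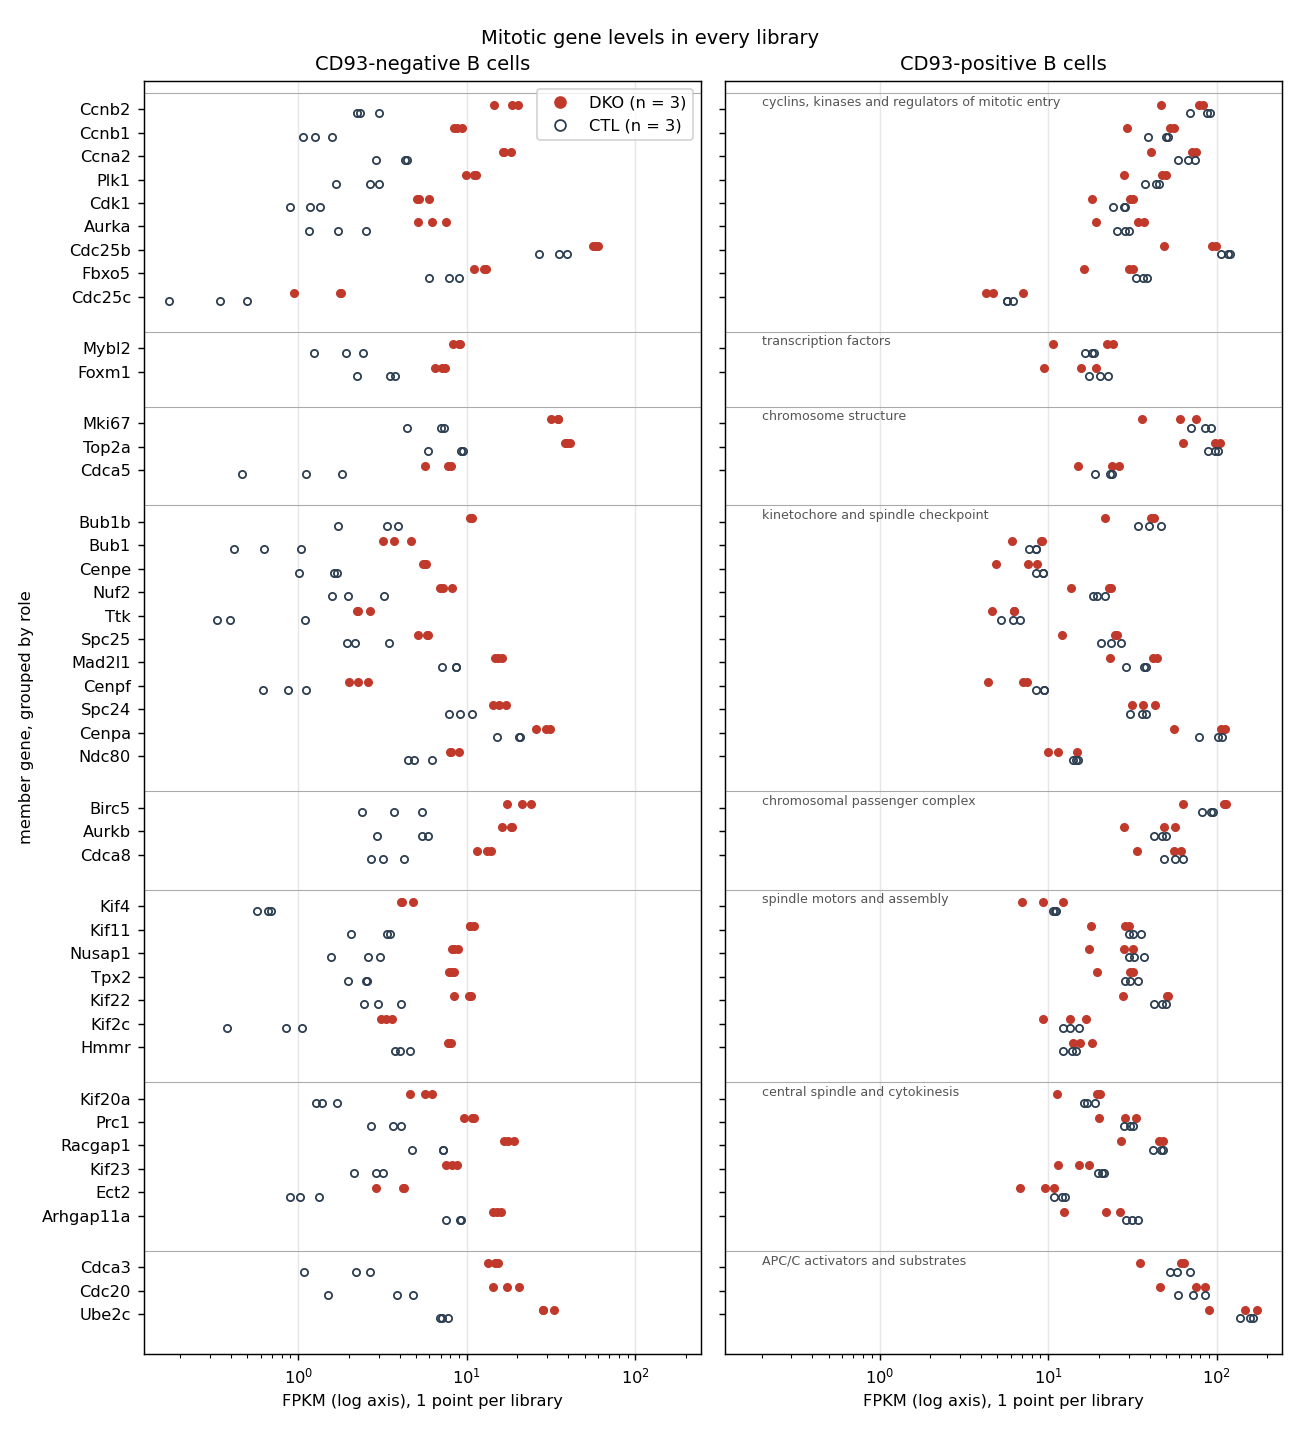
FPKM (log axis) of the 44 mitotic genes, 1 point per library, grouped by role, in CD93- cells (left) and CD93+ cells (right), with DKO as filled and CTL as open points. In CD93- cells every DKO point lies right of the CTL points of the same gene, while in CD93+ cells the groups overlap for most genes and DKO replicate 3 is the lowest library for 42 of 44.

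Genes of this class are known for a pair of promoter elements, the CHR (cell cycle genes homology region), with the letters TTTGAA or TTCGAA, which the DREAM and MuvB complexes bind, and the CCAAT box, which NF-Y binds. Of the 44 members, 37 had an entry in the RefSeq promoter table (build GRCm38.p6, from 250 bases before to 50 bases after the start). Either CHR hexamer, read on both strands, was in the promoters of 30 of the 37 (81.1%), against 21.7% of 27025 genes in the table and 16.7% of 7764 genes tested in CD93- cells. The letters CCAAT were in 29 of 37 (78.4%), against 41.1% of the table, and the promoters of 27 members (73.0%) held both, against 8.61% of the table. In 27 members a hexamer began between 40 bases before and 50 bases after the start. A match is a description of the letters, not a bound site. The 30 members with a hexamer had a median log2 change of 1.39 in CD93- cells and the 7 without had 1.50. Shown are the 120 bases before the start of 6 members with both motifs and of Birc5, with neither, from genes described in the next paragraphs. Capitals mark the hexamers (TTTGAA or TTCGAA, or TTCAAA where read on the other strand) and the CCAAT box (or ATTGG). The strands and positions are Cdk1 chr10:69352913-69353032 (minus), Top2a chr11:99024190-99024309 (minus), Kif11 chr19:37376262-37376381 (plus), Kif22 chr7:127042421-127042540 (minus), Cdc20 chr4:118437344-118437463 (minus), Ube2c chr2:164769809-164769928 (plus) and Birc5 chr11:117849117-117849236 (plus), each printed 5′ to 3′ toward the start.
Cdk1: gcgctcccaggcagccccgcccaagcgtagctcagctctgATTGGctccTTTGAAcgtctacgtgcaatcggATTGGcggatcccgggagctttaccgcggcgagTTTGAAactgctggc
Top2a: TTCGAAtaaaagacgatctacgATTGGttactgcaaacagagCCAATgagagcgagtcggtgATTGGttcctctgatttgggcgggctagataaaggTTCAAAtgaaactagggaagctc
Kif11: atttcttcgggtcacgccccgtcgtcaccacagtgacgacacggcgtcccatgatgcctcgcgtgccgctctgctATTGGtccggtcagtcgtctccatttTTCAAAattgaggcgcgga
Kif22: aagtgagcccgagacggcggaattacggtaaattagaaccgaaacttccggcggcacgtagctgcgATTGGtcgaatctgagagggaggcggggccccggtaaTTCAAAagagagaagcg
Cdc20: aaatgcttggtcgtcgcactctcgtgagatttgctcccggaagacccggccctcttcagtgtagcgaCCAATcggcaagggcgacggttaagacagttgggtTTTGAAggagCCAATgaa
Ube2c: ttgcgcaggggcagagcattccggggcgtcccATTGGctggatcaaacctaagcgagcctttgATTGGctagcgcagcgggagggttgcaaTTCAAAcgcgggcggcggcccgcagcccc
Birc5: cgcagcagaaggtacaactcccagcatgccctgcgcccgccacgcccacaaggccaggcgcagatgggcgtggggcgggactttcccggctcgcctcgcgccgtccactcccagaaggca

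In these windows the last hexamer before the start begins 15 bases before it in Cdk1, 17 in Kif22, 18 in Cdc20, 19 in Kif11, 23 in Top2a and 29 in Ube2c. The CCAAT letters nearest before that hexamer begin 48 bases before the start in Cdk1, 54 in Kif22, 53 in Cdc20, 45 in Kif11, 58 in Top2a and 57 in Ube2c. Within these windows a CCAAT box came before the last hexamer in the 6 genes shown. Cdk1 and Top2a also had an earlier hexamer, at -71 and -120, and Cdc20 had CCAAT letters again at -8. Hexamers after the start fall outside the windows, so this order is not limited to these genes. Ccnb2, for example, had CCAAT at -21 and a hexamer at 5. In the other 2 of the 8 members with both motifs in this window, Arhgap11a and Ect2, the hexamer came first: it began at position -99 in Arhgap11a, with CCAAT at -81, and at -114 in Ect2, with CCAAT at -96 and -55. The windows use only the first listed start of each gene. From a later listed start of Prc1, not counted here, CCAAT began at -62 and a hexamer at -30.

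**Figure D2:**
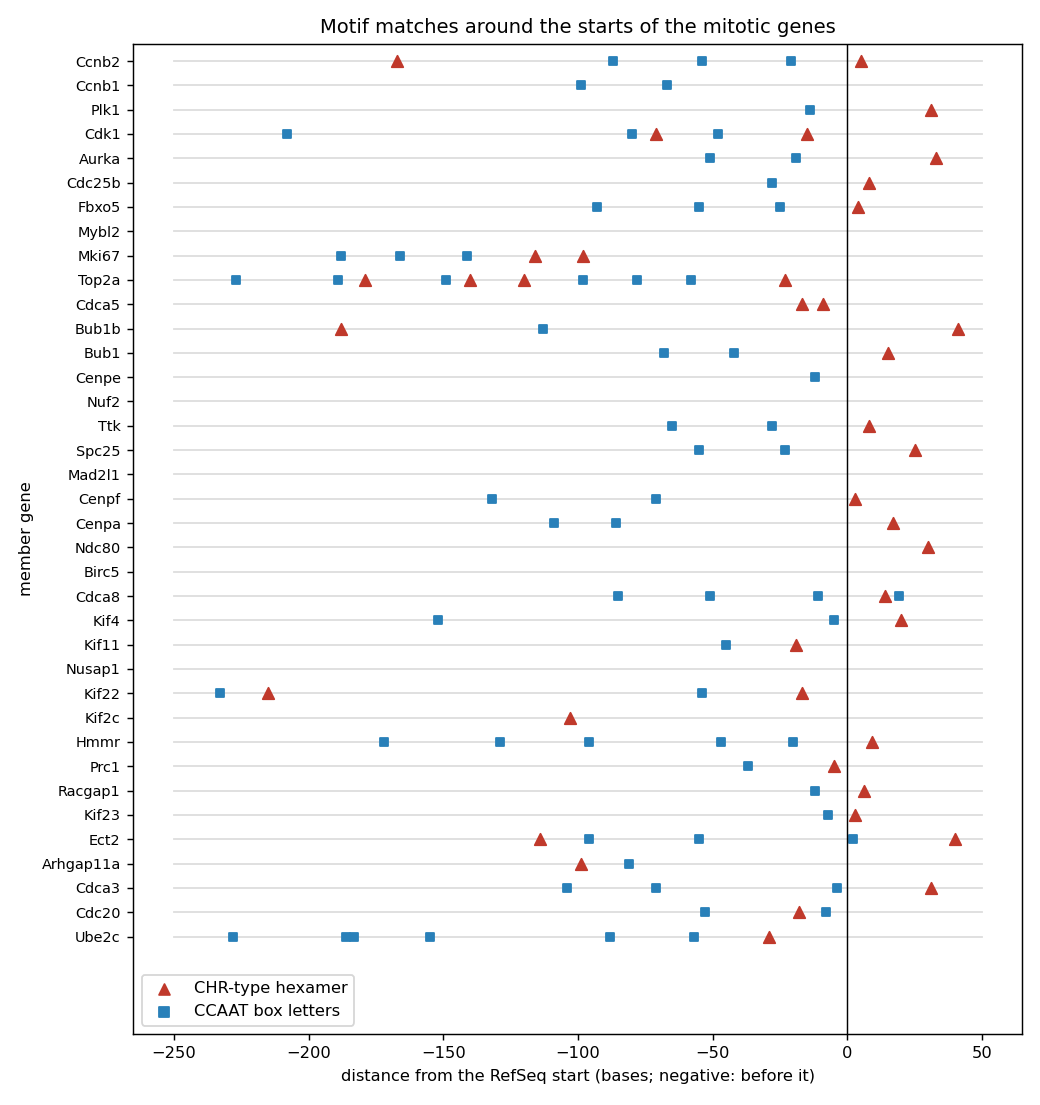
Position of CHR-type hexamers (triangles) and CCAAT letters (squares), in bases from the first listed RefSeq start, for the 37 members with a promoter entry. Most triangles cluster around the start, with squares before them, and Mybl2, Nuf2, Mad2l1, Birc5 and Nusap1 have neither.

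Among the regulators of mitotic entry, all 8 tested members rose in CD93- DKO libraries, with a median log2 change of 1.69. Ccnb2, a B-type cyclin that activates Cdk1, was at 14.6, 18.6 and 20.3 FPKM in DKO and at 2.22, 2.999 and 2.32 FPKM in CTL libraries, a log2 change of 2.41 (SE 0.16, adjusted p = 7.41e-07). Its lowest DKO library was far above its highest CTL library. The partner cyclins Ccnb1 and Ccna2 changed by 2.09 and 1.91, and the kinase Cdk1 averaged 5.40 FPKM in DKO against 1.14 FPKM in CTL libraries. Plk1 and Aurka, kinases of spindle assembly and mitotic entry, changed by 1.79 and 1.39.

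The smallest changes of this role were in a pair of genes that were already well expressed in CTL cells. Cdc25b, a phosphatase that removes inhibitory phosphates from Cdk1, was at 57.4, 56.01 and 59.8 FPKM in DKO and at 26.8, 39.3 and 35.5 FPKM in CTL libraries (log2 change 0.77, adjusted p = 0.00298). It was the highest of the 44 members in CTL cells, and its groups did not overlap. Fbxo5, an inhibitor of the APC/C, changed by 0.64 (adjusted p = 0.0105). Cdc25b thus had a higher level than its relative Cdc25c in every library, on the per-length scale of FPKM.

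Mybl2 and Foxm1 are transcription factors that activate late cell cycle genes, Mybl2 together with the MuvB complex. Mybl2 was at 8.28, 9.14 and 9.04 FPKM in DKO and at 1.25, 1.91 and 2.42 FPKM in CTL libraries (log2 change 1.80, SE 0.17, adjusted p = 1.19e-05). Foxm1 was at 6.49, 7.12 and 7.39 FPKM in DKO and at 2.24, 3.50 and 3.73 FPKM in CTL libraries (log2 change 0.96, SE 0.16, adjusted p = 0.00125). Both were higher in every DKO library than in any CTL library, and CTL replicate 1 was the lowest library for both.

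The genes of chromosome structure had a median change of 2.16 over 3 members. Mki67, which coats mitotic chromosomes and marks cycling cells, was at 34.6, 31.7 and 34.9 FPKM in DKO and at 4.42, 7.30 and 7.07 FPKM in CTL libraries (log2 change 2.28). Top2a, the topoisomerase that untangles sister DNA, was at 38.4, 39.5 and 40.8 FPKM in DKO and at 5.93, 9.31 and 9.54 FPKM in CTL libraries (log2 change 2.16, adjusted p = 2.51e-06). DKO libraries differed little among themselves for these genes. Cdca5, or sororin, which protects sister chromatid cohesion, averaged 7.18 FPKM in DKO and 1.14 FPKM in CTL libraries.

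The kinetochore and spindle checkpoint genes all rose but had the lowest median, 0.93 over 11 members, and 10 of 11 passed after upper quartile rescaling. Cenpa, the histone variant that marks centromeres, was at 25.8, 31.4 and 29.6 FPKM in DKO and at 15.03, 20.8 and 20.4 FPKM in CTL libraries (log2 change 0.61, SE 0.15, adjusted p = 0.0125). Its ratio of means, 1.54, was the smallest of the members. Spc24 was at 14.3, 15.5 and 17.0 FPKM in DKO and at 7.85, 9.10 and 10.8 FPKM in CTL libraries (log2 change 0.70, adjusted p = 0.00402).

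Spc24 belongs to the Ndc80 complex, which binds microtubules, and its 4 subunits did not change by the same amount. Ndc80 was at 7.94, 8.96 and 8.04 FPKM in DKO and at 4.86, 4.46 and 6.26 FPKM in CTL libraries (log2 change 0.60, SE 0.15, adjusted p = 0.0114), with no overlap of the groups. Nuf2, the partner of Ndc80 in the complex, averaged 7.43 FPKM in DKO and 2.26 FPKM in CTL libraries (log2 change 1.40), and Spc25 changed by 0.93. No test compared the changes of these subunits with each other. The checkpoint kinases Bub1 and Ttk changed by 1.52 and 1.11, Bub1b, a checkpoint component that restrains Cdc20, by 1.59 and its partner Mad2l1 by 0.85. The large kinetochore proteins Cenpe and Cenpf changed by 1.45 and 0.82.

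The 3 members of the chromosomal passenger complex, which corrects faulty attachments and later guides cytokinesis, rose with a median of 1.73. Birc5, or survivin, was at 17.2, 21.4 and 23.9 FPKM in DKO and at 2.40, 5.45 and 3.72 FPKM in CTL libraries (log2 change 2.21, SE 0.21, adjusted p = 1.50e-05). Cdca8, or borealin, was at 13.9, 13.1 and 11.5 FPKM in DKO and at 3.20, 2.72 and 4.25 FPKM in CTL libraries (log2 change 1.67, adjusted p = 1.30e-05). Every DKO library exceeded every CTL library for each of them, and Aurkb, the kinase of the complex, changed by 1.73.

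All 7 spindle motors and assembly factors rose, with a median of 1.45. Kif11, the motor that pushes spindle poles apart, was at 10.4, 10.5 and 11.04 FPKM in DKO and at 2.06, 3.48 and 3.37 FPKM in CTL libraries (log2 change 1.57, SE 0.16, adjusted p = 2.80e-05). Kif22, a chromosome-bound motor, was at 10.5, 10.3 and 8.45 FPKM in DKO and at 2.45, 4.07 and 2.97 FPKM in CTL libraries (log2 change 1.39). The groups of both were apart. Kif4, Nusap1, Tpx2 and Kif2c, which act on chromosome arms, spindle microtubules and their ends, changed by 1.70, 1.50, 1.45 and 1.32. Hmmr, a spindle protein and hyaluronan receptor, was at 8.02, 7.69 and 7.86 FPKM in DKO and at 3.78, 4.04 and 4.59 FPKM in CTL libraries and had the smallest change of the role, 0.79 (adjusted p = 0.00110).

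The 6 genes of the central spindle and cytokinesis rose with a median of 1.33. Racgap1, a part of centralspindlin, was at 16.5, 19.03 and 17.6 FPKM in DKO and at 4.76, 7.24 and 7.24 FPKM in CTL libraries (log2 change 1.36, SE 0.16, adjusted p = 8.21e-05). Arhgap11a, a GTPase-activating protein, was at 15.9, 14.4 and 15.2 FPKM in DKO and at 7.58, 9.17 and 9.29 FPKM in CTL libraries (log2 change 0.74, adjusted p = 0.00161). Neither gene had overlapping groups. Kif23, the motor of centralspindlin, changed by 1.30, Ect2, the exchange factor that it recruits, by 1.19, Prc1, the microtubule bundler, by 1.37 and the motor Kif20a by 1.40.

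The activators and substrates of the APC/C had a median of 2.14, and all 3 rose. Ube2c, the ubiquitin-conjugating enzyme of the complex, was at 28.3, 28.2 and 32.97 FPKM in DKO and at 7.75, 7.13 and 6.92 FPKM in CTL libraries (log2 change 1.90, adjusted p = 1.05e-06). Cdc20, its activator in mitosis, was at 14.4, 17.3 and 20.4 FPKM in DKO and at 1.504, 3.85 and 4.805 FPKM in CTL libraries (log2 change 2.14, SE 0.26). Cdca3, a trigger of mitotic entry that the complex degrades, was at 13.3, 15.4 and 14.8 FPKM in DKO and at 1.08, 2.20 and 2.69 FPKM in CTL libraries. Its log2 change, 2.42 (SE 0.19, adjusted p = 3.98e-06), was the largest of the tested members, and its groups were far apart.

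**Figure D3:**
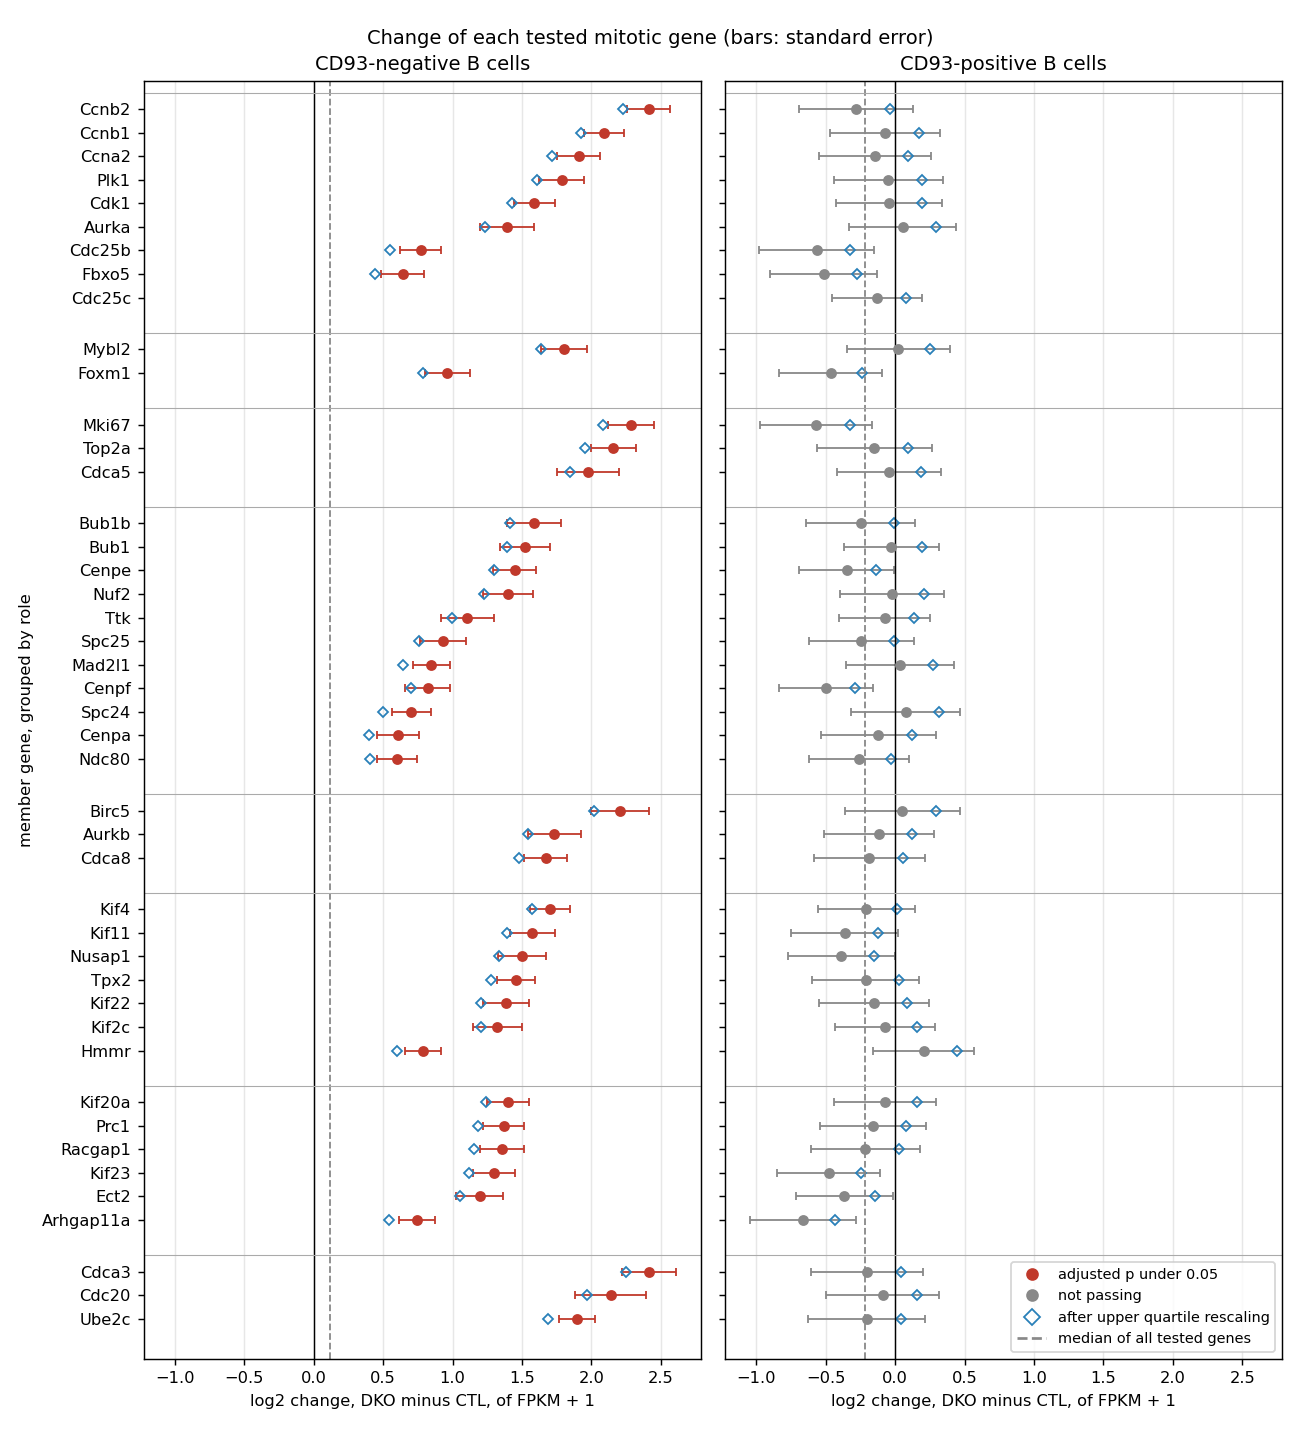
Log2 change (DKO minus CTL, of FPKM + 1) of each tested member with its standard error, in CD93- cells (left) and CD93+ cells (right); red points passed the adjusted p threshold of 0.05, grey ones did not, diamonds are the changes after upper quartile rescaling and dashed lines the median of all tested genes. All CD93- changes lie between 0.60 and 2.42, and all CD93+ changes between -0.66 and 0.21.

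Within the CTL group of CD93- cells, most members were lowest in the same library. The summed FPKM of the 44 genes was 542.5, 566.7 and 591.1 in DKO and 152.9, 213.7 and 213.3 in CTL libraries of CD93- cells. CTL replicate 1 was the lowest library for 33 of 44 members, and for 25 of 43 after upper quartile rescaling. That library was low over all genes too, with an FPKM sum of 342368 and an upper quartile of 18.7 FPKM, against 24.3 and 23.0 FPKM in CTL replicates 2 and 3. The share of all genes that were lowest in it was not computed. Without CTL replicate 1 the median change was 1.33 and 43 members passed. Within its own library the median member stood at the 73.4, 73.9 and 73.0 percentile of all 23234 genes in its table in DKO and at the 59.9, 61.5 and 61.4 percentile in CTL libraries. These ranks do not depend on the scale of a library, and the groups did not overlap on them.

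Members whose CTL level in CD93- cells was a larger part of their CTL level in CD93+ cells tended to change less in CD93- cells. The level in CTL replicate 1, as a percentage of the mean of CTL CD93+ cells, ran from 1.80% to 33.4% over the 44 members. Against the log2 ratio of the DKO mean over the mean of CTL replicates 2 and 3, its Spearman correlation was -0.76 and its Pearson correlation -0.81 across genes. The 11 members highest on this measure, had a median ratio of 1.64, and the 11 lowest had 4.01. The ratios of the highest ran from 1.40 (Cenpa) to 3.38 (Cenpe), with Racgap1 at 2.45, and those of the lowest from 2.93 (Bub1b) to 7.56 (Ccnb1), so single genes depart from the trend. The CTL level of CD93- cells enters both measures, as numerator of the first and denominator of the second. A negative correlation is thus partly built in, also with separate CTL libraries, and nothing on baseline and response is read from it. Genes are not independent replicates, the tables were scaled separately, and all CTL libraries belong to the same group, so this is a description.

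Other cell cycle genes were set beside the members, and beside the 18.7% of all tested genes that rose and the 2.79% that fell in CD93- cells. Of a list of other mitotic genes, 66 of 71 were tested in CD93- cells, 50 rose and 0 fell, with a median log2 change of 0.95. The highest over the 12 libraries of both tables were Cks1b, a subunit that binds cyclin-dependent kinases, at 23.4, 33.2 and 29.6 FPKM in DKO and 6.43, 6.70 and 7.47 FPKM in CTL libraries, and its relative Cks2, at 32.0, 29.0 and 24.6 FPKM in DKO and 13.3, 13.01 and 13.0 FPKM in CTL libraries. Both rose without overlap. Within CD93- cells alone Smc4, a subunit of condensin, and Bub3, a checkpoint protein, were higher still, and they were picked after their values were seen. Smc4 averaged 35.96 FPKM in DKO and 28.7 FPKM in CTL libraries and did not pass (log2 change 0.32, adjusted p = 0.123), and Bub3 averaged 34.1 FPKM in DKO and 22.8 FPKM in CTL libraries and rose (log2 change 0.57, adjusted p = 0.00902). The 16 that did not pass included Mis12, Dsn1, Nsl1 and Pmf1, the 4 subunits of the Mis12 complex of the kinetochore, with log2 changes of 0.00, 0.45, 0.22 and 0.12. Pttg1, or securin, was at 15.4, 16.2 and 14.8 FPKM in DKO and 14.2, 17.6 and 18.4 FPKM in CTL libraries (log2 change -0.10, adjusted p = 0.663), and it passed as lower after upper quartile rescaling (log2 change -0.31, adjusted p = 0.00990). Its adjusted p ranged between 0.00990 and 0.935 over 16 alternatives.

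Of 30 DNA replication genes, 24 rose and 0 fell (median 1.01). Pcna, the sliding clamp of DNA polymerases, was at 120.1, 128.8 and 131.1 FPKM in DKO and 60.0, 75.1 and 72.0 FPKM in CTL libraries. Rrm2, the regulated subunit of ribonucleotide reductase, was at 31.8, 31.8 and 32.95 FPKM in DKO and 3.31, 7.29 and 6.29 FPKM in CTL libraries. Pold1, a subunit of a replicative polymerase, did not pass (log2 change 0.01), and after upper quartile rescaling it passed as lower.

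G1 cyclins, their kinases and E2F factors rose in 6 of 11 cases, and 0 fell (median 0.60). Cdk4, a kinase of G1, was at 78.2, 78.5 and 85.6 FPKM in DKO and 41.8, 52.0 and 44.6 FPKM in CTL libraries. Ccnd3, a D-type cyclin that activates it, was at 34.5, 33.5 and 34.3 FPKM in DKO and 17.4, 24.3 and 25.5 FPKM in CTL libraries. Both were higher in every DKO library. After upper quartile rescaling 6 of the 11 passed as higher and 1, Ccnd1, as lower.

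The counts for the APC/C itself and for the promoter-binding complexes were near the 18.7% of all tested genes that rose. Of 13 APC/C genes, its core subunits and the activator Fzr1, 3 rose and 0 fell (median 0.23): Anapc13 at 75.5, 84.3 and 111.0 FPKM in DKO and 44.4, 65.1 and 52.1 FPKM in CTL libraries, Anapc5 (log2 change 0.44) and Fzr1 (0.49). Of 14 MuvB, DREAM and NF-Y factors, which bind the promoter elements shown above, 2 rose and 0 fell (median 0.13), namely Tfdp1, a partner of E2F proteins, with 38.6 FPKM in DKO against 16.8 FPKM in CTL libraries on average, and Rbl1, a pocket protein (log2 change 0.52). The highest of this list over the 12 libraries, E2f4 and Rbbp4, changed by 0.32 and 0.31 and did not pass. After upper quartile rescaling 2 of the 14 factors passed as higher and 2, Nfya and Rbl2, as lower, where 17.1% and 23.8% of all tested genes did.

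**Figure D4:**
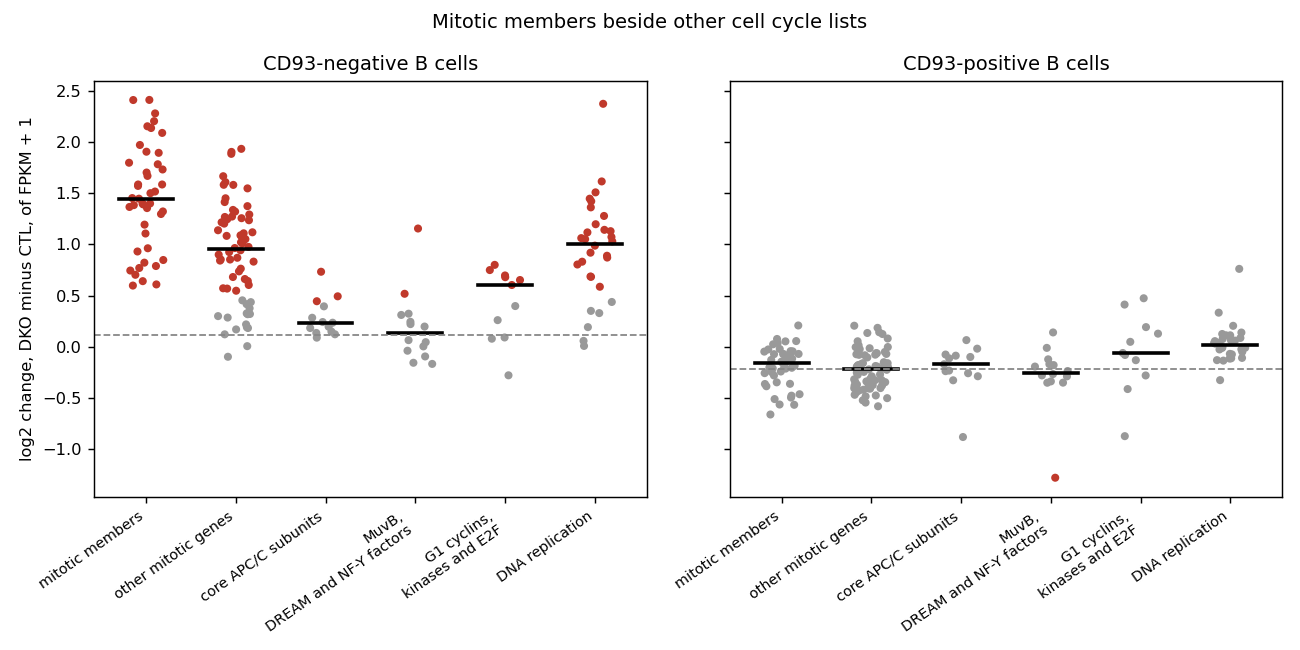
Log2 change (DKO minus CTL, of FPKM + 1) of each tested gene of the mitotic members and of 5 other cell cycle lists, in CD93- cells (left) and CD93+ cells (right), with bars at the list medians, red points for genes past the adjusted p threshold in either direction and dashed lines at the median of all tested genes. In CD93- cells the medians are 1.45 for the members, 0.95 for other mitotic genes and 1.01 for DNA replication, while in CD93+ cells all 6 medians lie between -0.25 and 0.01.

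Markers of other cells were read in the same CD93- libraries, where 18.7% of all tested genes rose and 2.79% fell. The 7 pan-B genes summed to 3000 to 3153 FPKM in DKO and 2762 to 3414 FPKM in CTL libraries, with 1 of 7 lower and 0 higher. After upper quartile rescaling 4 of the 7 were lower, where 23.8% of all tested genes were, and in 5 every DKO library lay below every CTL library, where 33.3% of all tested genes did. Plasma cell markers summed to 320.9 to 359.5 FPKM in DKO and 68.4 to 96.0 FPKM in CTL libraries, with 3 of 5 tested higher, and Igj, the joining chain of antibodies, was at 192.4, 212.3 and 220.5 FPKM in DKO and 4.49, 9.78 and 9.09 FPKM in CTL libraries. Germinal center markers summed to 62.4 to 63.8 FPKM in DKO and 35.5 to 43.7 FPKM in CTL libraries. Among those tested, Mef2b, S1pr2 and Fas rose, Rgs13 fell, and Bcl6, the defining factor, was at 31.4, 30.0 and 28.1 FPKM in DKO and 28.2, 34.9 and 30.9 FPKM in CTL libraries. Bcl6 passed in 3 of 16 alternatives, over which its log2 change ran from -0.34 to 0.01.

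T cell markers rose in 5 of 9 cases, where 18.7% of all tested genes rose, and summed to 57.6 to 62.2 FPKM in DKO and 31.5 to 52.1 FPKM in CTL libraries. Erythroid markers summed to 171.9 to 199.9 FPKM in DKO and 43.6 to 61.0 FPKM in CTL libraries. Of 6 tested, 4 were higher, or 2 of 6 after upper quartile rescaling, where 17.1% of all tested genes were. Their factor Gata1 was at 0.192 to 0.240 FPKM in DKO and listed at 0 in all 3 CTL libraries, and Klf1 was at 0.723 to 1.04 FPKM in DKO and 0.149 to 0.778 FPKM in CTL libraries. Globin copies are near-identical and share reads, so single globin values are uncertain. Macrophage markers rose in 2 of 2 tested cases, C1qb and Emr1, with the other 6 of the list too low to be tested, dendritic cell markers in 2 of 5, and NK cell and neutrophil markers in 0 of 6 and 0 of 3. The part of the pan-B, plasma, germinal center, T, erythroid, macrophage and dendritic cell markers in the mitotic gene result was not tested.

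In CD93+ cells the mitotic genes were high in both groups, and none passed. All 44 members were tested, 0 rose and 0 fell, where 1.67% of all 11250 tested genes rose and 1.54% fell (limma; 1338 genes at an unadjusted p under 0.05, none of them a member). The median log2 change of the members was -0.16, against -0.22 for all tested genes, with a range of -0.66 (Arhgap11a) to 0.21 (Hmmr). Standard errors were 0.32 to 0.42, and the 95% intervals of the members reached from -1.41 to 0.92 at their widest, so changes of the size found for several members in CD93- cells were within them. The summed FPKM of the members was 1918, 1840 and 1077 in DKO and 1911, 1637 and 1863 in CTL libraries. DKO replicate 3 was thus the low library, and it was the lowest of the 6 for 42 of the 44 members, but for 2 of 44 after upper quartile rescaling. Without it the median change was 0.07 and 0 members passed.

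Ccnb2 was at 78.4, 83.0 and 47.0 FPKM in DKO and 91.2, 69.8 and 87.3 FPKM in CTL libraries of CD93+ cells. Cdc25b was at 98.6, 93.5 and 48.7 FPKM in DKO and 119.6, 106.7 and 116.2 FPKM in CTL libraries. Ccnb2 overlapped between the groups, and Cdc25b did not. Mybl2 was at 24.4, 22.3 and 10.7 FPKM in DKO and 18.2, 18.6 and 16.5 FPKM in CTL libraries, and Foxm1 at 19.3, 15.7 and 9.46 FPKM in DKO and 20.2, 17.5 and 22.8 FPKM in CTL libraries. Both transcription factors overlapped, with DKO replicate 3 lowest.

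Mki67 was at 75.8, 60.7 and 36.2 FPKM in DKO and 85.5, 92.8 and 70.1 FPKM in CTL libraries, and Top2a at 104.9, 98.2 and 62.7 FPKM in DKO and 98.1, 88.5 and 102.1 FPKM in CTL libraries. Cenpa was at 112.7, 105.7 and 56.2 FPKM in DKO and 102.2, 78.7 and 107.8 FPKM in CTL libraries, and Spc24 at 36.4, 43.2 and 31.5 FPKM in DKO and 38.03, 30.7 and 36.2 FPKM in CTL libraries. These 4 genes overlapped, and DKO replicates 1 and 2 were at or above most CTL libraries for Top2a, Cenpa and Spc24. Birc5 was at 110.8, 114.3 and 63.0 FPKM in DKO and 92.9, 81.6 and 94.6 FPKM in CTL libraries, and Cdca8 at 56.2, 61.1 and 33.5 FPKM in DKO and 63.0, 48.4 and 56.2 FPKM in CTL libraries. Ube2c, at 173.8, 147.8 and 90.7 FPKM in DKO and 165.1, 138.0 and 157.7 FPKM in CTL libraries, was the highest of the 44 members, and Cdc20 was at 85.7, 75.8 and 46.3 FPKM in DKO and 72.2, 59.2 and 85.01 FPKM in CTL libraries. In each of these 4 the lowest value was again DKO replicate 3, and the other DKO libraries lay within or above the CTL range.

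Spindle and cytokinesis genes made up 3 of the 6 members that were lower in every DKO library. Kif11 was at 30.1, 28.5 and 17.9 FPKM in DKO and 35.5, 30.1 and 31.7 FPKM in CTL libraries, and its groups were separated by a small margin. Arhgap11a was at 26.7, 22.0 and 12.5 FPKM in DKO and 31.6, 29.03 and 34.0 FPKM in CTL libraries (log2 change -0.66, SE 0.38, adjusted p = 0.493). With Cdc25b, Fbxo5, Cenpf and Kif23 these are the 6 members in which every DKO library lay below every CTL library, where 19.0% of all tested genes did, and in 0 members every DKO library lay above, where 2.94% of all tested genes did. Kif22 and Racgap1 overlapped. Hmmr, at 14.1, 15.4 and 18.2 FPKM in DKO and 13.9, 14.7 and 12.2 FPKM in CTL libraries, was the member with the largest positive change, and it was highest in DKO replicate 3.

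After upper quartile rescaling, 3 members passed as higher and 3 as lower in CD93+ DKO libraries, where 11.4% and 9.34% of all tested genes did. Birc5, Aurka and Mad2l1 were higher, by log2 changes of 0.30, 0.29 and 0.27 (adjusted p = 0.0205, 0.0186 and 0.0486, each reaching 0.9995 over 24 alternatives). Arhgap11a, Cdc25b and Fbxo5 were lower, by changes of -0.43, -0.32 and -0.28 (adjusted p = 0.0125, 0.0153 and 0.0384, likewise reaching 0.9995). When 1 of the 6 libraries in turn was also left out, alternatives added after seeing the data, 0 to 2 members passed as higher and 0 to 4 as lower. Birc5 then passed in 2 of 6 fits, without DKO replicate 1 and without CTL replicate 3, with changes of 0.27 to 0.34. Aurka passed in 2 of 6, without DKO replicate 2 and without CTL replicate 3, with changes of 0.28 to 0.32, and Mad2l1 in 0 of 6, with changes of 0.22 to 0.33. Arhgap11a passed as lower in 5 of 6, all but the fit without CTL replicate 2 (adjusted p = 0.0523 there). Cdc25b passed as lower in 3 of 6, without DKO replicate 1, DKO replicate 3 or CTL replicate 3, and Fbxo5 in 1 of 6, without CTL replicate 3. Kif23 without DKO replicate 3 and Mki67 without CTL replicate 3 passed as lower in 1 of 6 each. With all 6 libraries kept, those of 10 members lay apart with DKO above CTL and those of 4 with DKO below, where 20.9% and 22.0% of all tested genes did.

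The CD93+ libraries also differed in sex pattern. Ddx3y, a gene of the Y chromosome, was at 11.9 and 10.6 FPKM in CTL replicates 1 and 2 and at or under 0.0504 FPKM in CTL replicate 3 and the 3 DKO libraries, which instead had Xist. With sex as a covariate the median change of the members was -0.21. The change in this fit rests on the 3 DKO libraries and CTL replicate 3, since CTL replicates 1 and 2 differ from them in sex pattern. Sex and genotype are thus nearly confounded. All 6 CD93- libraries had Ddx3y.

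Erythroid markers summed to 14030, 15750 and 3337 FPKM in DKO and 64490, 55180 and 15110 FPKM in CTL libraries of CD93+ cells. Of 11 tested, 7 fell, or 0 after upper quartile rescaling, where 1.54% and 9.34% of all tested genes did. Klf1, an erythroid transcription factor, was at 44.7, 33.9 and 17.7 FPKM in DKO and 43.0, 36.1 and 16.9 FPKM in CTL libraries. Neutrophil markers summed to 444.3 to 1400 FPKM in DKO and 1599 to 2229 FPKM in CTL libraries, with 1 of 7 lower, or 5 of 7 after that rescaling. The pan-B genes summed to 1446 to 3023 FPKM in DKO and 3109 to 4069 FPKM in CTL libraries, also with 1 of 7 lower, or 5 of 7 after it, where 9.34% of all tested genes were lower. Plasma cell markers summed to 844.0 to 1451 FPKM in DKO and 146.5 to 200.2 FPKM in CTL libraries, with 3 of 5 higher, where 1.67% of all tested genes were. T cell markers summed to 54.0 to 179.9 FPKM in DKO and 88.3 to 109.5 FPKM in CTL libraries, with 0 of 9 called. The part of the neutrophil, pan-B and plasma cell markers in the mitotic gene result was not tested. Red cell precursors divide too, and their part in the mitotic level of the CD93+ sort was not tested.

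**Figure D5:**
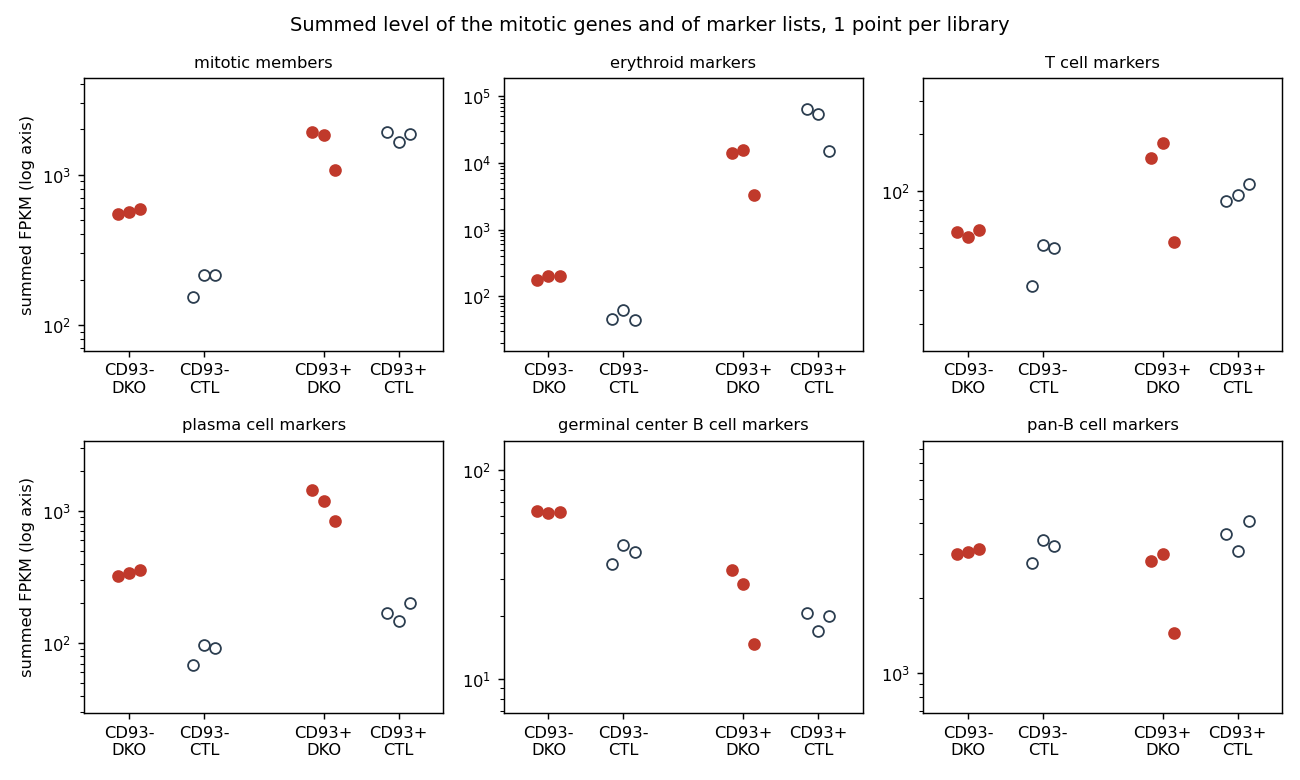
Summed FPKM (log axis) of the 44 mitotic members and of 5 marker lists, 1 point per library, for DKO (filled) and CTL (open) libraries of CD93- and CD93+ cells. The mitotic sum is 542.5 to 591.1 in DKO and 152.9 to 213.7 in CTL libraries of CD93- cells, and the erythroid sum reaches 15750 in DKO and 64490 in CTL libraries of CD93+ cells.

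The other cell cycle lists in CD93+ cells gave few calls. Of 68 other mitotic genes, 13 APC/C genes, 11 G1 genes and 30 DNA replication genes, 0 passed in either direction, with medians of -0.22, -0.17, -0.06 and 0.01. Of 14 MuvB, DREAM and NF-Y factors 1 fell, Tfdp2, an E2F partner, at 10.7, 10.2 and 5.24 FPKM in DKO and 27.9, 27.6 and 13.3 FPKM in CTL libraries (log2 change -1.28, adjusted p = 0.0151). With sex as a covariate, a fit that rests on CTL replicate 3 among the CTL libraries, its change was -0.61. After upper quartile rescaling Tfdp2 did not pass (adjusted p = 0.0519), and over 24 alternatives it passed in 8. Leaving out CTL replicate 1, CTL replicate 2, DKO replicate 2 or DKO replicate 3 each ended the call (adjusted p = 0.633, 0.453, 0.0680 and 0.0812). After upper quartile rescaling 10 of 30 DNA replication genes passed as higher and 0 as lower, where 11.4% and 9.34% of all tested genes did. Higher and lower counts were then 1 and 1 for the 68 other mitotic genes and 0 and 1 for the 13 APC/C genes. They were 2 and 1 for the 11 G1 genes and 1 and 0 for the 14 MuvB, DREAM and NF-Y factors.

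Across the sorts, the mitotic level of DKO CD93- cells lay between those of CTL CD93- and CTL CD93+ cells. The tables were scaled separately, so these levels carry no test. In CTL cells the members were 2.80 to 35.9 times as high in CD93+ as in CD93- libraries, with a median of 11.7. Mean levels in DKO CD93- cells were 18.8% to 62.1% of those in CTL CD93+ cells, with a median of 32.3%. For all 44 members every DKO CD93- library was below every CTL CD93+ library, and for 41 below every CD93+ library. The share of all genes with this pattern was not computed, so the counts are not read as particular to the members. FPKM sums over all genes were higher too, at 523898 to 595984 in CTL CD93+ against 424032 to 463987 in DKO CD93- libraries. The sorts also differed in sex pattern. Every CD93- library had Ddx3y, while the DKO libraries and CTL replicate 3 of CD93+ cells had Xist instead. In CD93+ libraries the median member stood at the 88.6 to 89.8 percentile of all genes in the table in DKO and at the 88.6 to 90.1 percentile in CTL cells. The changes in the 2 comparisons had a Pearson and a Spearman correlation of 0.18 across the 43 members tested in both, and the difference between the effects in CD93- and CD93+ cells was not tested.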

How the data were processed

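The authors deposited FPKM values per gene and library, in a separate table for CD93- and CD93+ cells. Per the labels' protocols, total RNA was purified with an RNeasy micro kit and strand-specific libraries were made with a SureSelect kit. Tools named in the submitters' processing notes are TopHat2 2.0.8 and Cufflinks 2.1.1 beside Bowtie2 2.1.0, with build mm9; the annotation and the treatment of multi-mapping reads are not given in the sources used here. FPKM holds no counts, so no count model was used. Of 24 samples, 12 were used and the other 12 were not analysed here; 6 value columns repeated others and were not used.

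Genes that reached 1 FPKM in 3 or more libraries of their table entered the fit, made with limma 3.58.1 (R 4.3.3) on log2(FPKM + 1) with a mean-variance trend, two-sided and with no covariates. Benjamini-Hochberg adjustment ran over all tested genes. The script was tested on simulated data. In CD93+ cells the fit gave genes of like level nearly the same spread. Replicates correlated at r = 0.934 to 0.976 within groups. The members and gene lists were chosen with earlier results of these data known. Full values were given for the 2 members of each role with the highest mean FPKM over the 12 libraries of both tables and for the largest and smallest changes. Promoter letters were searched in RefSeq sequences of GRCm38.p6, a build other than that of the files. Some genes of the marker lists are not reported here.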

Additional observations from a re-analysis of the deposited data

Results flagged for a closer look

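In 6 members every DKO library was above every CTL library in CD93- cells and below every CTL library in CD93+ cells. The log2 changes in CD93+ cells were -0.57 for Cdc25b, -0.51 for Fbxo5, -0.50 for Cenpf, -0.36 for Kif11, -0.48 for Kif23 and -0.66 for Arhgap11a, against 0.77, 0.64, 0.82, 1.57, 1.30 and 0.74 for the same genes in CD93- cells. The difference between the sorts was not tested, because the tables were scaled separately, and none of the 6 passed in CD93+ cells. In CD93+ cells 19.0% of all tested genes lay below in this way, and 6 of 44 members is no larger a share. The share of all genes with the pattern in both sorts was not computed. DKO replicate 3, whose FPKM sum was the lowest of the CD93+ libraries, was the lowest library for all 6. After upper quartile rescaling Cdc25b, Fbxo5 and Arhgap11a still had every DKO library below every CTL library in CD93+ cells, where 22.0% of all tested genes did. The groups of Cenpf, Kif11 and Kif23 then overlapped.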

How the results depend on the processing

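In CD93- cells 36 to 43 members passed as higher and 0 as lower under the 16 alternatives run, with 36 under a filter of 5 FPKM, which tests fewer genes. The median change of the members was 1.85 with a pseudocount of 0.1, 0.78 with a pseudocount of 5 and 1.23 with equal sums, and 1.33 to 1.50 with a library left out. All genes called numbered 2351, and 4478 after upper quartile rescaling, 3719 with equal sums, 4198 after quantile normalization and 1368 to 3247 with a library left out. Cd79b, called in neither direction before, was lower after quantile normalization (log2 change -0.32, adjusted p = 0.00859). In CD93+ cells members passing as higher and lower numbered 0 and 0, but 3 and 3 after upper quartile rescaling, 0 and 3 with equal sums, and 2 and 3 after quantile normalization. Alternatives added after seeing the data joined upper quartile rescaling with leaving out 1 library. They gave 1 and 2 without DKO replicate 1, 1 and 1 without DKO replicate 2, 0 and 3 without DKO replicate 3, 0 and 1 without CTL replicate 1, 0 and 0 without CTL replicate 2, and 2 and 4 without CTL replicate 3, and 1420, 1011, 1547, 967, 862 and 2131 genes called in all. All genes called there numbered 361, and 16 with no filter, 168 with a filter of 5 FPKM, 2331 after upper quartile rescaling, 1595 with equal sums, 2230 after quantile normalization, 188 without the trend, 783 with sample weights, 127 with sex as a covariate, 17 in the libraries with Xist, also added later, and 139 to 623 with a library left out. The cause of these moves was not tested.

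No pairing of the libraries by replicate number was seen. Deviations of same-numbered libraries correlated at -0.14 to 0.17, and 2 of 6 libraries in each table correlated best with their own number. With 3 libraries per group this check cannot exclude a pairing. With the replicate block 43 members passed in CD93- cells and 0 in CD93+ cells, and all genes called numbered 2874 and 237. Depth is unknown and sets the precision of the members below 1 FPKM.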
